A study of Homo sapiens with 6 samples.

Results

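The glucocorticoid receptor gene NR3C1 and 8 genes known as its transcriptional targets, TSC22D3, KLF9, PER1, FKBP5, DUSP1, SGK1, ZFP36 and CRISPLD2, were examined in A549 cells exposed to recombinant human surfactant protein D (rhSP-D). The 9 genes were taken by symbol, for their textbook relation to the receptor, by a rule that uses no measured value but was set with earlier results of these data known, from a table of 57773 genes, and all 9 were among the 15848 genes with enough counts to be tested. A549 is a line from a human lung adenocarcinoma, and surfactant protein D is a collectin that binds sugars on microbes in the airspace of the lung. One group received rhSP-D at 10 µg/ml for 48 h, and the other received vehicle for 48 h, a matching volume of the buffer that the protein is eluted in, with 3 samples in each. Both groups were grown in RPMI-1640 medium with 10% fetal bovine serum and antibiotics, and the labels name no added glucocorticoid in either group. Polyadenylated RNA was sequenced, so that every value is an RNA abundance in a bulk culture of 1 cell line, in which fewer cells carrying an RNA and less of it per cell cannot be told apart.

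The glucocorticoid receptor is a nuclear receptor that waits in the cytoplasm in a complex with HSP90 and co-chaperones, moves to the nucleus when it binds cortisol, and there raises or lowers transcription of its target genes. In airway epithelium it is the receptor through which inhaled steroids act, and A549 cells are a common model for it. The classical induced targets include brakes on signalling and inflammation as well as regulators that feed back on the receptor. Several of them also answer to serum, growth factors, cAMP, osmotic stress or the circadian clock, so that a change in 1 of them is not a readout of the receptor alone.

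The stretches of 250 bases before an annotated start are printed for 3 targets: the most abundant (DUSP1), the target whose call held under every alternative (TSC22D3), and the co-chaperone gene of the feedback loop (FKBP5). They are RefSeq sequences of GRCh38.p14, given 5′ to 3′ on the gene's strand, all 3 genes being on the minus strand. Capitals mark 1 motif in each: TGACGTCA, the cAMP response element, in DUSP1 (chr5:172771196-172771445), CACGTG, an E-box bound by clock and MYC family factors, in FKBP5 (chr6:35688916-35689165), and TATAAA, the TATA box, in TSC22D3 (chrX:107717063-107717312).
DUSP1: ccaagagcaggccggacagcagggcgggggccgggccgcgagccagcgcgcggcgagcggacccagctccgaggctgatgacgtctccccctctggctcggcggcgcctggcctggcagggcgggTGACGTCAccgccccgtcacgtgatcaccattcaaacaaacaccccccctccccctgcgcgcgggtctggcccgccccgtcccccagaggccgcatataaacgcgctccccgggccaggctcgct
FKBP5: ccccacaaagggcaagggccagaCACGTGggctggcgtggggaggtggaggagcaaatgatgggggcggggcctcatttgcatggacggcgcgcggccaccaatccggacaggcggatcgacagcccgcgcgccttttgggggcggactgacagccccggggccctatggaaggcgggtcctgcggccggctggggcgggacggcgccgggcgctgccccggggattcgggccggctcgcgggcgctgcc
TSC22D3: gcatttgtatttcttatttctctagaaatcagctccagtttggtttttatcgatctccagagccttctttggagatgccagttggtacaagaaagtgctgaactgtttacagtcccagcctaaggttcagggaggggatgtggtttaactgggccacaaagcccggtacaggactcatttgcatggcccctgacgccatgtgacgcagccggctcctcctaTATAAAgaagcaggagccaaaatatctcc

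RefSeq held 21 such windows for the 9 genes, all of which matched by symbol, and 35116 windows over all genes. Letters were searched on both strands. The palindromic glucocorticoid response element, AGAACA and TGTTCT with 3 bases of any kind between them, was in 1 of the 35116 windows (0.00285%) and in none of the 21. Its arm AGAACA, which every such element holds, was in 12.4% of all windows and in none of the 21. This says only that those letters are not in these 250 bases. TGACGTCA was in 1.65% of all windows and in 1 of the 21, that of DUSP1, with its first base 125 bases before the start. CACGTG was in 6.34% of all windows and in 3 of the 21, of PER1, FKBP5 and DUSP1. In DUSP1 it lay 108 bases before the start and clear of the cAMP element. TATAAA was in 10.7% of all windows and in 6 of the 21, of NR3C1, TSC22D3, DUSP1 and SGK1. GGGCGG, a box bound by SP1 family factors, was in 42.6% of all windows and in 14 of the 21. Those 14 include at least 1 window of 8 of the 9 genes, KLF9 being the exception.

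Total counts were 18599955 to 26030880 in rhSP-D libraries and 11396193 to 19803697 in vehicle libraries, so that 3 counts, taken as the detection floor, equalled 0.117 to 0.164 CPM (counts scaled to the normalized library size) in rhSP-D and 0.149 to 0.260 CPM in vehicle. Vehicle replicate 1, the shallowest library, stood apart on the first principal component at -38.2, against 3.59 to 12.3 for the other 5. Of the markers of lung and stromal cells, the epithelial sum was 9489 to 9669 CPM in rhSP-D and 9282 to 9400 CPM in vehicle. It came almost wholly from the keratins KRT8 and KRT18. The cadherin gene CDH1 averaged 143 CPM in rhSP-D and 149 CPM in vehicle. EPCAM averaged 1.99 CPM in rhSP-D and 1.82 CPM in vehicle, and KRT19 averaged 1.53 CPM in rhSP-D and 1.83 CPM in vehicle. Of 7 alveolar type II markers only ABCA3 had enough counts to be tested, so the alveolar label of the line was not borne out by surfactant genes. The leukocyte sum was 93.2 to 98.5 CPM in rhSP-D and 85.3 to 90.6 CPM in vehicle, mostly the lysosomal gene CD68, which rose by 8.94% (adjusted p = 0.0161 by edgeR, and 0.504 after the length and GC correction), while the defining marker PTPRC was below the floor in every library. The fibroblast sum was 13.2 to 14.2 CPM in rhSP-D and 10.5 to 14.8 CPM in vehicle. Most of it was COL1A1, which averaged 12.2 CPM in rhSP-D and 11.5 CPM in vehicle, while DCN had 0 counts in all 6 libraries. Of 4 endothelial markers 0 had enough counts to be tested. The part of these sums in the results was not tested.

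Per kilobase of exon, merged over all annotated transcripts, DUSP1 RNA was the most abundant of the 9. Its level was 495 CPM per kb in rhSP-D and 498 CPM per kb in vehicle. ZFP36 came next at 71.4 CPM per kb in rhSP-D and 76.3 CPM per kb in vehicle, and then NR3C1 at 14.2 CPM per kb in rhSP-D and 15.8 CPM per kb in vehicle. In each of these 3 genes all 6 libraries lay above all 6 of the next gene. SGK1 (10.2 CPM per kb in rhSP-D, 9.65 in vehicle) and TSC22D3 (8.99 CPM per kb in rhSP-D, 10.8 in vehicle) changed places between the groups. In rhSP-D, SGK1 was the higher (SD 0.263 for SGK1 and 0.0971 for TSC22D3). In vehicle, TSC22D3 was the higher (SD 0.206 for SGK1 and 0.031 for TSC22D3). PER1 followed at 1.85 CPM per kb in rhSP-D and 1.80 in vehicle. FKBP5 (1.15 CPM per kb in rhSP-D, 1.40 in vehicle), KLF9 (0.930 in rhSP-D, 1.1 in vehicle) and CRISPLD2 (1.15 in rhSP-D, 1.02 in vehicle) were the lowest, and neighbours among them overlapped. The related mineralocorticoid receptor NR3C2, which binds cortisol as well as aldosterone, was at 0.291 CPM per kb in rhSP-D and 0.286 CPM per kb in vehicle.

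Receptor RNA was lower in rhSP-D. NR3C1 (ENSG00000113580, GRCh38 chromosome 5, 143277931 to 143435512, minus strand) had 132, 128 and 130 CPM in the 3 rhSP-D libraries, against 148, 141 and 146 CPM in the 3 vehicle libraries. Every rhSP-D library lay below every vehicle library, and the gap between the groups was wider than the range within either. The means were 130 ± 1.82 CPM in rhSP-D and 145 ± 3.61 CPM in vehicle (SD, n = 3 each). NR3C1 fell by 10.3% (95% interval -13.8 to -6.54%), a log2 change of -0.16 with an SE of 0.03, at an adjusted p of 0.000236 by edgeR's quasi-likelihood test with Benjamini-Hochberg adjustment over all genes. After removal of trends on gene length and GC content, described below, the log2 change was -0.06 with an adjusted p of 0.174, so the call was lost. The gene has 16 annotated transcripts, and counts per gene do not separate the alpha and beta forms of the receptor.

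TSC22D3, KLF9 and PER1 encode regulators of transcription. TSC22D3 (ENSG00000157514, chromosome X, 107713221 to 107777342, minus strand) encodes GILZ, a leucine zipper protein that restrains NF-kB and AP-1 and is among the most widely used markers of glucocorticoid action. Its RNA was at 42.5, 43.4 and 42.7 CPM in rhSP-D libraries, against 51.7, 51.5 and 51.5 CPM in vehicle libraries. The groups were wide apart, and the vehicle libraries differed among themselves by less than 1 CPM. TSC22D3 averaged 42.8 ± 0.463 CPM in rhSP-D and 51.6 ± 0.148 CPM in vehicle (SD, n = 3 each) and fell by 17.0% (interval -21.9 to -11.7%), with a log2 change of -0.27, an SE of 0.04 and an adjusted p of 4.63e-05 by edgeR. The call held under every alternative run, at log2 changes of -0.28 to -0.26 with a library left out and of -0.28 after the length and GC correction. Of its 4766 nt of exon, 71 lie opposite an exon of NCBP2L, and without strand in the counting reads there could come from either gene.

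KLF9 (ENSG00000119138, chromosome 9, 70384597 to 70414624, minus strand), a Krüppel-like repressor and an early feed-forward target of the receptor, was at 4.69, 4.63 and 5.12 CPM in rhSP-D, against 4.93, 5.74 and 6.41 CPM in vehicle. The lowest vehicle library, replicate 1, lay inside the rhSP-D range, so the groups overlapped. The log2 change was -0.26 with an SE of 0.14 (interval -31.7 to 2.28%), which did not pass the test (adjusted p = 0.242). With 1 library left out it was -0.34 to -0.16, the smallest without vehicle replicate 3. Each library held 57 to 129 counts of KLF9, the fewest of the 9 genes. PER1 (ENSG00000179094, chromosome 17, 8140472 to 8156506, minus strand), a repressor in the circadian clock that glucocorticoids induce directly, had 13.4, 11.4 and 14.1 CPM in rhSP-D, against 13.7, 12.7 and 11.4 CPM in vehicle. The groups covered almost the same range. Its log2 change of 0.06 (SE 0.09, interval -8.94 to 19.1%) did not pass the test (adjusted p = 0.747), and its sign turned with single libraries left out, which gave -0.01 to 0.13, being negative without rhSP-D replicate 3 and without vehicle replicate 3.

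FKBP5, DUSP1 and SGK1 encode a co-chaperone and enzymes of signalling. FKBP5 (ENSG00000096060, chromosome 6, 35573585 to 35728583, minus strand) encodes the co-chaperone FKBP51, which lowers the hormone affinity of the receptor and closes a short feedback loop. It had 12.2, 12.9 and 11.6 CPM in rhSP-D, against 14.97, 16.8 and 12.9 CPM in vehicle. The groups were separate, but only just, since rhSP-D replicate 2 and vehicle replicate 3 lay together at 12.9 CPM. FKBP5 averaged 12.2 ± 0.666 CPM in rhSP-D and 14.9 ± 1.96 CPM in vehicle (SD, n = 3 each) and fell by 17.8% (interval -28.0 to -6.10%), with a log2 change of -0.28, an SE of 0.09 and an adjusted p of 0.0370 by edgeR. The call was lost after the length and GC correction (log2 change -0.19, adjusted p = 0.237), with libraries thinned to the same total (-0.33, 0.0764) and with limma-voom (-0.27, 0.0812). It was also lost without rhSP-D replicate 1 (-0.28, 0.117), rhSP-D replicate 3 (-0.25, 0.133), vehicle replicate 1 (-0.28, 0.0827) or vehicle replicate 2 (-0.17, 0.309).

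DUSP1 (ENSG00000120129, chromosome 5, 172768090 to 172771195, minus strand) encodes MKP-1, a phosphatase that switches off p38, JNK and ERK and is induced both by glucocorticoids and by growth factors. Its RNA was at 1005, 1004 and 989 CPM in rhSP-D, against 1012, 999 and 1007 CPM in vehicle. The groups overlapped, and all 6 libraries lay close together. The log2 change of -0.01 (SE 0.02) did not pass the test (adjusted p = 0.764), and with 11695 to 25732 counts per library the interval was narrow, from -2.89 to 1.65%. After the length and GC correction DUSP1 was lower in rhSP-D, at a log2 change of -0.09 (adjusted p = 0.000140), and with library totals alone as scaling it was lower at -0.05 (adjusted p = 0.0251), a scaling that moved the median of all genes by -0.04.

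SGK1 (ENSG00000118515, chromosome 6, 134169246 to 134318112, minus strand), a kinase that raises sodium transport and responds to serum as well as to glucocorticoids, stood on the other side. It had 101, 105 and 99.7 CPM in rhSP-D, against 94.7, 98.7 and 96.0 CPM in vehicle. Every rhSP-D library lay above every vehicle library, by a small margin. The log2 change of 0.08 (SE 0.03, interval 0.671 to 10.5%) did not pass the test over all genes (adjusted p = 0.116). With the length and GC trends removed, SGK1 was higher in rhSP-D at a log2 change of 0.17 (SE 0.03) with an adjusted p of 0.000355.

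ZFP36 and CRISPLD2 act on messenger RNA and outside the cell. ZFP36 (ENSG00000128016, chromosome 19, 39406813 to 39409412, plus strand) encodes tristetraprolin, which binds AU-rich elements and speeds the decay of cytokine messages. Its RNA was at 148, 139 and 144 CPM in rhSP-D, against 153, 152 and 155 CPM in vehicle. The groups did not overlap, and the rhSP-D libraries were the more scattered. ZFP36 averaged 144 ± 4.69 CPM in rhSP-D and 153 ± 1.54 CPM in vehicle (SD, n = 3 each) and fell by 6.25% (interval -9.98 to -2.37%), with a log2 change of -0.09, an SE of 0.03 and an adjusted p of 0.0240 by edgeR. The change was larger after the length and GC correction, at -0.19 (adjusted p = 1.29e-05), while the call was lost with thinned libraries (adjusted p = 0.135), with DESeq2 (0.0686), and without rhSP-D replicate 2 (0.129), rhSP-D replicate 3 (0.0556) or vehicle replicate 3 (0.119).

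CRISPLD2 (ENSG00000103196, chromosome 16, 84819984 to 84920768, plus strand) encodes a secreted, lipopolysaccharide-binding protein that glucocorticoids induce in airway cells. It had 9.22, 9.11 and 9.19 CPM in rhSP-D, against 8.74, 7.36 and 8.15 CPM in vehicle. Every rhSP-D library lay above every vehicle library. The log2 change of 0.19 (SE 0.10, interval -1.69 to 32.5%) did not pass the test (adjusted p = 0.244), nor did that of 0.22 after the correction (adjusted p = 0.195). Of its 7965 nt of exon, 304 lie opposite exons of other genes.

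**Figure D1:**
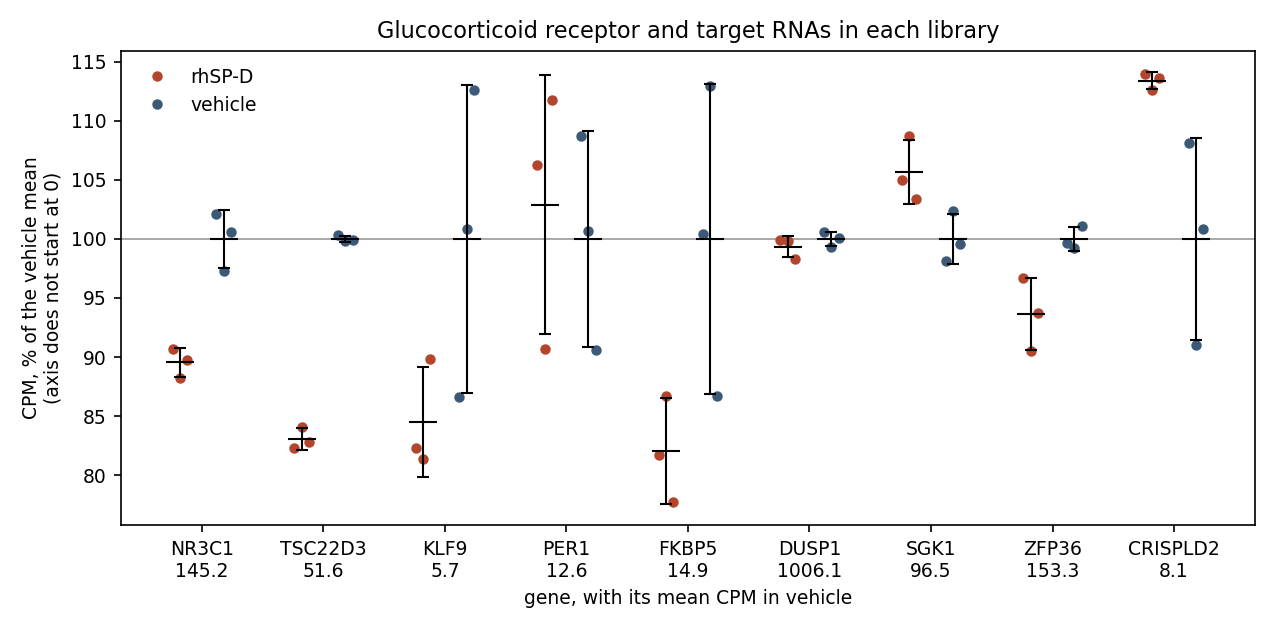
RNA of the receptor and its 8 targets in each library, as a percentage of the gene's vehicle mean, with the mean and SD of each group (n = 3, rhSP-D left of vehicle; the vertical axis does not start at 0). The 3 rhSP-D points of NR3C1, TSC22D3, FKBP5 and ZFP36 lie below the 3 vehicle points, those of SGK1 and CRISPLD2 lie above, and the groups of KLF9, PER1 and DUSP1 overlap.

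Of the 9 genes, 4 fell (44.4%), 0 rose and 5 did not pass the test, where 6.63% of all genes tested fell, 9.31% rose and 15.9% changed. The groups did not overlap for 6 of the 9, 4 lower and 2 higher in rhSP-D, where 31.5% of all genes tested had groups that did not overlap, 15.4% lower and 16.2% higher. The median log2 change of the 9 was -0.09, and that of all genes was -0.01. Whether the triplicates were separate cultures is not given in the labels, so these p-values measure the spread between samples, which may be technical.

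The change of a gene moved with its length and GC content across the whole table. In the sixth of tested genes with the shortest exonic length, 78 to 2221 nt, the median log2 change was 0.09, and in the longest sixth, 8541 to 118976 nt, it was -0.08. In the sixth with the lowest GC content, 27.4 to 40.3%, the median was -0.08, and in the highest, 59.5 to 74.7%, it was 0.06. NR3C1, FKBP5 and SGK1, with 9172, 10628 and 9992 nt of exon, lie in the longest sixth, and DUSP1 and ZFP36, with 2019 and 2010 nt, in the shortest. These lengths merge the exons of all annotated transcripts of a gene, 30 for SGK1, so a single message can be shorter. NR3C1, with 39.1% GC, also lies in the lowest GC sixth. What made these trends, and their part in the changes of the 9 genes, was not tested.

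**Figure D2:**
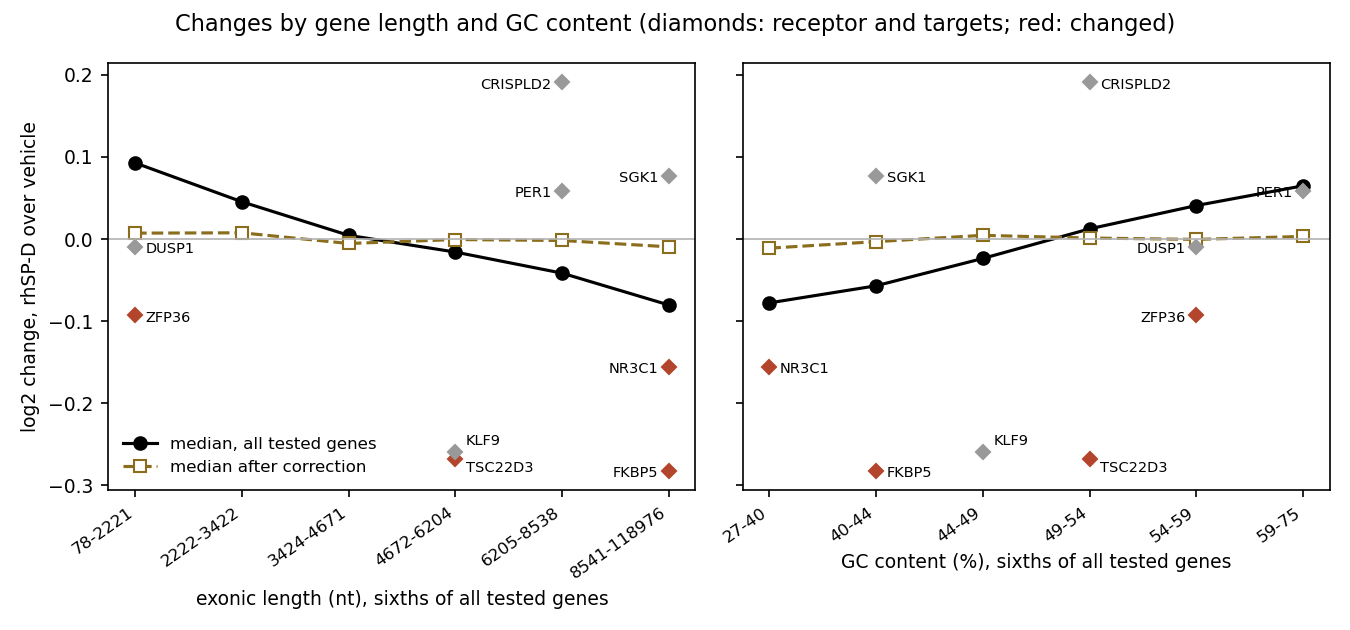
Median log2 change, rhSP-D over vehicle, of all tested genes in sixths of exonic length (left) and of GC content (right), as counted and after correction, with the 9 genes as diamonds (red where the gene changed). The uncorrected median runs downward with length, between 0.09 and -0.08, and upward with GC content, between -0.08 and 0.06, and NR3C1 and FKBP5 sit at the long end.

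With per-library trends on length and GC removed, 3 of the 9 genes were lower in rhSP-D (TSC22D3, ZFP36 and DUSP1) and 1 was higher (SGK1), where 3.36% of 15347 genes were lower, 6.82% higher and 10.2% changed in either direction. TSC22D3 and ZFP36 were lower in both fits. NR3C1 and FKBP5 were called in the first fit and not in the second, and DUSP1 and SGK1 in the second and not in the first. The median log2 change of the 9 stayed at -0.09.

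**Figure D3:**
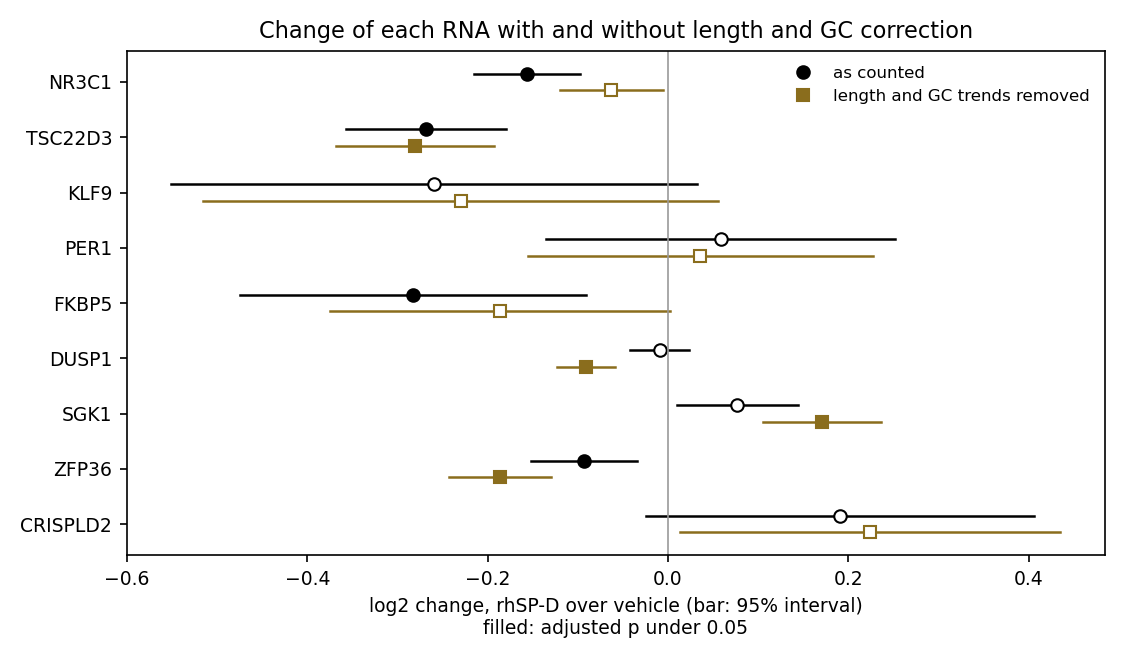
Log2 change of each of the 9 RNAs, rhSP-D over vehicle, as counted (circles) and with length and GC trends removed (squares), with 95% intervals and filled symbols at an adjusted p under 0.05. TSC22D3 keeps its place near -0.27, NR3C1 moves to -0.06, DUSP1 moves to -0.09 and SGK1 moves to 0.17.

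The machinery that folds, ships and assists the receptor moved in both directions. Of 20 genes, all tested, 4 rose and 6 fell, where 9.31% of all genes rose and 6.63% fell. The median log2 change of the 20 was -0.01, the same to 2 decimals as over all genes. After the length and GC correction 3 of them were higher and 5 lower, where 6.82% of all genes were higher and 3.36% lower. The median of the 20 was then 0.01. The lists were chosen with earlier results of these data known, and no list count was tested against these shares. The constitutive HSP70 gene HSPA8, which loads client proteins onto HSP90, averaged 1166 ± 12.6 CPM in rhSP-D and 1063 ± 16.1 CPM in vehicle and rose by 9.68% (adjusted p = 9.36e-07 by edgeR). HSP90AB1, the constitutive HSP90 gene, rose by 5.58% (adjusted p = 0.000600, and 0.0865 with totals alone as scaling), while its inducible partner HSP90AA1 was at 1131 CPM in rhSP-D and 1132 CPM in vehicle (adjusted p = 0.987). HSPA1A rose by 12.5%, and by 5.68% after the length and GC correction (adjusted p = 0.0299), though its reads may be shared with the near-identical HSPA1B. The ubiquitin ligase gene STUB1 rose by 11.9%, a call lost after that correction (adjusted p = 0.0929). Of the 2316 nt of exon of STUB1, 983 lie opposite exons of JMJD8, and without strand in the counting reads there could come from either gene.

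The 6 that fell were EP300, CREBBP, NCOA3, NCOA2, MED1 and PPARGC1A, each known as a coactivator. NCOA1 and SMARCA4, coactivators of the same list named after their values were seen, did not pass (log2 changes 0.01 and 0.15, adjusted p = 0.965 and 0.232). EP300, a histone acetyltransferase recruited by nuclear receptors, had 52.7, 53.2 and 49.9 CPM in rhSP-D, against 62.7, 61.6 and 64.5 CPM in vehicle, with no overlap, and fell by 17.5% (adjusted p = 1.74e-05). Its relative CREBBP fell by 13.4% and the p160 coactivator gene NCOA3 by 12.4%, and both stayed lower after the correction (log2 changes -0.18 and -0.11). NCOA2, which encodes the p160 coactivator GRIP1, MED1, a Mediator subunit, and PPARGC1A, a coactivator of energy metabolism, fell at log2 changes of -0.30, -0.21 and -0.17, and PPARGC1A lost its call after the correction (adjusted p = 0.438). These 3 are named to complete the count, after their values were seen.

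Of 8 genes of steroid supply and related receptors, 5 were tested, 0 rose and 1 fell, with a median log2 change of -0.06. Over all genes 9.31% rose and 6.63% fell. H6PD, which feeds NADPH to the cortisol-regenerating enzyme HSD11B1, averaged 70.0 CPM in rhSP-D and 76.6 CPM in vehicle and fell by 8.17% (adjusted p = 0.0225). That call was lost with thinned libraries (adjusted p = 0.0540), with DESeq2 (0.0751), and without rhSP-D replicate 2 (0.0575), rhSP-D replicate 3 (0.0984), vehicle replicate 1 (0.0767) or vehicle replicate 2 (0.0661). HSD11B1 itself was at 0.162 CPM in rhSP-D and 0.202 CPM in vehicle, about the floor of 3 counts, and was not tested.

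Other genes known to be induced by glucocorticoids moved in both directions. Of 36, 34 were tested, 5 rose and 5 fell, where 9.31% of all genes rose and 6.63% fell. After the correction again 5 rose and 5 fell, where 6.82% of all genes were higher and 3.36% lower. The median log2 change of the 34 was -0.04, and -0.06 after the correction. The metallothioneins MT2A and MT1X, metal-binding proteins that zinc induces as well, had the largest falls of the genes named. MT1X had 10.5, 8.89 and 9.69 CPM in rhSP-D, against 16.5, 14.0 and 16.8 CPM in vehicle, wide apart, and its log2 change was -0.69 (SE 0.09) at an adjusted p of 4.15e-06. MT2A had 111, 108 and 106 CPM in rhSP-D, against 137, 145 and 144 CPM in vehicle, also wide apart, and its log2 change was -0.39 (SE 0.03) at an adjusted p of 4.20e-10. ERRFI1, an inhibitor of EGFR, fell by 10.1% (adjusted p = 0.000536). RGS2, a brake on G protein signalling, and KLF6, a Krüppel-like factor, complete the 5 that fell, at log2 changes of -0.20 and -0.15, the second without a call after the correction (adjusted p = 0.104).

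Among those that rose, NFKBIA, the inhibitor of NF-kB and itself an NF-kB target, was at 54.7 CPM in rhSP-D and 43.7 CPM in vehicle (25.8% higher, adjusted p = 8.83e-06). SLPI, a protease inhibitor, rose by 12.2% (adjusted p = 0.00624) and lost its call after the correction (adjusted p = 0.667) and without vehicle replicate 3 (0.114). ANXA1, an anti-inflammatory annexin, rose by 3.70% (adjusted p = 0.0303), a call lost with totals alone as scaling (0.693), with thinned libraries (0.0833), with the replicate block (0.0662), and without rhSP-D replicate 1, 2 or 3 (0.0515, 0.0961 and 0.0984) or vehicle replicate 3 (0.177). After the length and GC correction ANXA1 was higher by a log2 change of 0.10 (adjusted p = 2.60e-05). TNFAIP3, the NF-kB inhibitor A20, also rose, at a log2 change of 0.51 (interval 13.7 to 79.1%, adjusted p = 0.0265). Its level was only 5.99 CPM in rhSP-D and 4.23 CPM in vehicle. RHOB, a small GTPase, was at 576 CPM in rhSP-D and 575 CPM in vehicle and did not pass (log2 change 0.00, adjusted p = 0.935), but was lower after the correction, at -0.08 (adjusted p = 0.00496), and at -0.04 with library totals alone.

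Of 19 genes that glucocorticoids repress, 10 had enough counts, 4 rose and 3 fell, and the median log2 change was 0.06. Over all genes 9.31% rose and 6.63% fell. With the correction 3 of the 10 rose and 2 fell, at a median of 0.01, where 6.82% of all genes were higher and 3.36% lower. IL11, an interleukin of the IL-6 family, was at 440 ± 4.83 CPM in rhSP-D and 392 ± 1.65 CPM in vehicle (12.3% higher, adjusted p = 3.26e-07, and 7.15% higher after the correction). The neutrophil chemokines CXCL1 and IL8 (CXCL8) rose by 18.04% (adjusted p = 0.000246) and 31.5% (adjusted p = 0.00430), the second at only 13.4 CPM in rhSP-D and 10.1 CPM in vehicle. IL6 was the fourth to rise, at a log2 change of 0.47 (adjusted p = 0.0384), and is named to complete the count. Its groups overlapped, and the call was lost after the correction (adjusted p = 0.0553).

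The 3 that fell were PTGS2, LIF and PLA2G4A. PTGS2, the inducible cyclooxygenase, had 44.5, 45.4 and 48.7 CPM in rhSP-D, against 57.6, 51.3 and 54.4 CPM in vehicle, with no overlap, and fell by 14.8% (adjusted p = 0.000888). PLA2G4A, the phospholipase that supplies arachidonic acid to it, fell by 7.67% (adjusted p = 0.0162), a call lost after the correction (adjusted p = 0.0677), with DESeq2 (0.0551) and without rhSP-D replicate 1 (0.0555) or vehicle replicate 1 (0.0879). LIF, an IL-6 family cytokine, fell by 6.92% (adjusted p = 0.00723), a call lost with thinned libraries (0.0715).

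**Figure D4:**
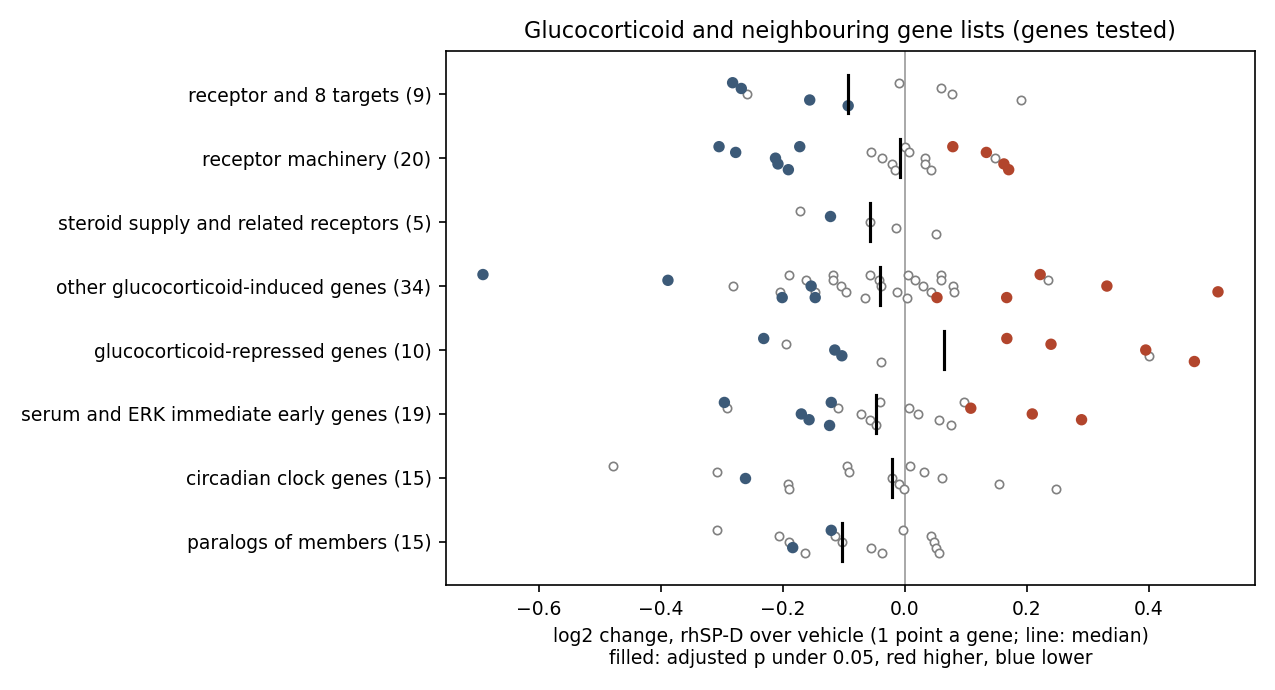
Log2 change, rhSP-D over vehicle, of every tested gene of the receptor and its targets and of 7 related lists, with the list median as a line and filled points at an adjusted p under 0.05 (red higher, blue lower). Filled points lie on both sides of 0 for the receptor machinery, for the other glucocorticoid-induced and the glucocorticoid-repressed genes and for the immediate early genes, while the receptor and its 8 targets have 4 filled points, steroid supply 1, clock genes 1 and paralogs 2, all below 0.

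DUSP1, SGK1 and ZFP36 are also immediate early genes of serum and ERK signalling. Of 19 other genes of that response 3 rose and 5 fell, where 9.31% of all genes rose and 6.63% fell. The median log2 change of the 19 was -0.05. The transcription factor genes EGR1 and FOS, read out widely as markers of ERK activity, fell. EGR1 had 398, 405 and 404 CPM in rhSP-D, against 465, 443 and 452 CPM in vehicle, with no overlap, and fell by 11.1% (adjusted p = 6.16e-07). FOS averaged 349 ± 3.29 CPM in rhSP-D and 389 ± 5.39 CPM in vehicle and fell by 10.3% (adjusted p = 1.87e-06), and its relative FOSB fell by 8.21% (adjusted p = 0.00818), a call lost with thinned libraries (0.155) and without rhSP-D replicate 3 (0.0524) or vehicle replicate 2 (0.0854). The Krüppel-like factor gene KLF2 and ZFP36L2, taken up below, complete the 5 that fell, KLF2 at a log2 change of -0.30 (adjusted p = 0.0164). The groups of KLF2 overlapped, with vehicle replicate 1, at 16.4 CPM, inside the rhSP-D range. IER3 and IER5, early response genes, rose by 22.2% and 15.6% (adjusted p = 1.86e-07 and 0.000366), IER3 by 12.3% after the correction, and JUNB rose by 7.76% (adjusted p = 0.000420) a call lost after the correction, where its log2 change was -8.99e-06. NR4A1, an orphan nuclear receptor, was at 586 CPM in rhSP-D and 603 CPM in vehicle and did not pass (adjusted p = 0.114), but was lower after the correction, at a log2 change of -0.06 (adjusted p = 0.0178). With the length and GC trends removed 3 of the 19 were higher and 7 lower, with a median of -0.09. Of all genes 6.82% were then higher and 3.36% lower.

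PER1 belongs to the circadian clock, and of 16 other clock genes 15 were tested, 0 rose and 1 fell, with a median log2 change of -0.02. Over all genes 9.31% rose, 6.63% fell and 15.9% changed, so that the count of clock genes that fell is near the background. CLOCK, the activator that binds E-boxes, was at 20.5 CPM in rhSP-D and 24.8 CPM in vehicle and fell by 16.6% (adjusted p = 0.0111), a call lost after the correction (adjusted p = 0.176) and without rhSP-D replicate 2 (0.0708) or vehicle replicate 3 (0.0989). The more abundant BHLHE40 and NR1D2, repressors in the clock, did not pass, at 263 CPM in rhSP-D and 257 CPM in vehicle, and at 31.8 CPM in rhSP-D and 33.4 CPM in vehicle.

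Of 15 paralogs of the 9 genes, all tested, 0 rose and 2 fell, where 9.31% of all genes rose, 6.63% fell and 15.9% changed. These counts are small and were not tested against those shares. The median log2 change of the paralogs was -0.10. With the correction 3 were higher (TSC22D1, DUSP4 and ZFP36L1) and the same 2 lower, where 6.82% of all genes were higher and 3.36% lower. KLF13, a relative of KLF9, was at 121 ± 3.69 CPM in rhSP-D and 137 ± 3.34 CPM in vehicle and fell by 12.0% (adjusted p = 6.74e-05). ZFP36L2, a relative of ZFP36, fell by 8.04% (adjusted p = 0.0130), a call lost without rhSP-D replicate 1 (0.0717), vehicle replicate 1 (0.0507) or vehicle replicate 3 (0.0945). TSC22D1, a relative of TSC22D3, was at 334 CPM in rhSP-D and 324 CPM in vehicle and did not pass (adjusted p = 0.177), and DUSP4, a relative of DUSP1, was at 520 CPM in rhSP-D and 503 CPM in vehicle (adjusted p = 0.0839). Both were higher after the correction, at log2 changes of 0.09 and 0.08.

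Across the 6 libraries, the genes whose log2 CPM followed NR3C1 most closely, of 9811 with a mean of at least 10 CPM, were PRKAR1A, a regulatory subunit of protein kinase A, the arginine transporter gene SLC7A1 and the cAMP phosphodiesterase gene PDE8A. Their Pearson correlations with NR3C1 were 0.998, 0.998 and 0.996, and 186 genes had a correlation over 0.95. Of the targets with that mean level, TSC22D3 had 0.95, ZFP36 0.907, FKBP5 0.610, DUSP1 0.562, PER1 -0.04 and SGK1 -0.926. The 6 points fall into the 2 groups and share their library and its depth, so a gene with separate groups has a correlation far from 0, and these values are a description.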

How the data were processed

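RNA sequencing of A549 cells was measured in 3 rhSP-D and 3 vehicle samples, grouped by their titles. The table the authors deposited holds raw, whole-number counts for 57773 Ensembl genes. The tools in the submitters' processing notes are cutadapt, STAR 2.7.0a and, for counting, featureCounts 2.0.0, on GRCh38 (hg38). Per the labels' protocols, Trizol RNA and an NEBNext Ultra RNA kit were used. The annotation release, strand setting and handling of multiply mapped reads have no entry in the labels, so reads of near-identical copies and of overlapping genes on opposite strands may be misassigned. Of the genes named, TSC22D3, CRISPLD2, HSP90AA1, STUB1, NCOA3, EP300, ERRFI1, TNFAIP3, LIF, IL6, JUNB, IER3, NR4A1, BHLHE40, CLOCK, TSC22D1, KRT8, KRT18, CDH1 and CD68 overlap opposite exons in GENCODE 29. Coordinates, merged exon lengths and the GC content of the longest transcript were taken from that release.

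With edgeR 4.0.16 in R 4.3.3, counts were filtered by filterByExpr (at least 10 counts, total at least 15), scaled by TMM, fitted with a robust quasi-likelihood model and tested 2-sided with Benjamini-Hochberg adjustment over all 15848 genes. A gene rose, fell or changed at an adjusted p under 0.05. CPM use library sizes multiplied by the TMM factors. The SE comes from the test statistic. Intervals (95%) cover the fitted spread, and the floor of 3 counts covers counting error only. The biological coefficient of variation was 2.51%. Chi-square per degree of freedom was 1.88 to 2.13 between libraries of a group and 3.79 to 6.20 across groups, and no 2 libraries were copies. The length and GC correction enters natural splines (5 degrees of freedom) on log2 exonic length and GC content, fitted per library, as offsets for 15347 genes. The procedure was tested on simulated data with 50 genes changed at each size. The simulated counts held no trend on length or GC content, so calls that such trends affect are not covered. The procedure recovered 14% of 1.1-fold, 54% of 1.2-fold, 90% of 1.5-fold and 88% of 2-fold changes, with 10 false calls. A gene that did not pass may therefore still have changed by a small amount.

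The members and lists were chosen with earlier results of these data known. Of 170 list and marker entries 169 matched, PECAM1 being the exception. The genes named were all 9 members; of each other list the changed genes, or the 6 with the smallest p, plus the 2 with the largest mean CPM; and the 3 genes most correlated with NR3C1. Some genes that met this rule are left out of the text. Lists are described by counts and medians, without a set test. The alternatives were DESeq2's factors, totals alone as scaling, no low-count filter, at least 1 CPM in 3 samples, a replicate block, the length and GC correction alone and with the block, thinning to the shallowest library, DESeq2 1.42.0, limma-voom (limma 3.58.1), an adjusted p under 0.01, and each library left out in turn.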

Additional observations from a re-analysis of the deposited data

How the results depend on the processing

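Of the 9 genes, 4 were called as in the report with DESeq2 size factors, without a low-count filter and with a filter of 1 CPM in 3 samples, 5 with library totals alone, 3 with limma-voom, and 2 with thinned libraries, with DESeq2 and at an adjusted p under 0.01. With a library left out the count was 2 to 3, the lowest without rhSP-D replicate 3. Over all genes, 2526 changed: 1562 with the length and GC correction (67.0% higher, against 58.4% without it), 1401 with the correction and the replicate block together (69.2% higher), 1534 with DESeq2, 1465 at an adjusted p under 0.01, and 1678 to 2182 with a library left out, the lowest without rhSP-D replicate 1. Library totals alone left 30.4% of the changed genes higher. The cause of these shifts was not tested.

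Same-numbered samples did not deviate together (correlations -0.08, -0.07 and 0.03 for numbers 1, 2 and 3), so the numbers were not taken as pairs; with the replicate block 4 of the 9 genes and 2319 of all genes changed.

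Of 140 values for the 9 genes under the alternatives, 116 kept their direction and their side of the threshold, 15 lost a call, 5 gained one and 4 turned sign; of 606 for the other named genes, these counts were 544, 37, 12 and 13. The values that turned sign, and the ranges that cross 0, were these. PER1 was at -0.0351 and DUSP1 at 0.00717 with thinned libraries, and PER1 at -0.0134 to 0.134 with a library left out. HSP90AA1 was at 0.00453 without a filter, 0.0385 with the correction and 0.0382 with the block added, and -0.0164 to 0.0160 with a library left out. RHOB was at -0.0374 with library totals alone, -0.0801 with the correction and -0.0817 with the block added, and -0.0146 to 0.0176 with a library left out. JUNB was at -8.99e-06 with the correction and BHLHE40 at -0.00922 with library totals alone. DESeq2 gave no adjusted p for FKBP5, PER1, KLF9 and CRISPLD2. With thinned libraries FKBP5 and ZFP36 lost their calls.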
